A study of Mus musculus with 8 samples.

Results

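The liver transcriptome of mice was compared between the dawn and the dusk side of the circadian cycle in 8 libraries of polyadenylated RNA, which are all 8 libraries of the series. The dawn side was formed by the 4 libraries of CT23, CT29, CT47 and CT53, and the dusk side by the 4 libraries of CT35, CT41, CT59 and CT65, where CT is circadian time in hours. The libraries were assigned to the sides by their labelled time, and the sides were chosen with earlier results of these data known. Counted within the 24-h cycle, CT23 and CT47 fall at the end of the subjective night (phase CT23) and CT29 and CT53 in the middle of the subjective day (phase CT5). CT35 and CT59 fall at the end of the subjective day (phase CT11), and CT41 and CT65 in the middle of the subjective night (phase CT17). All animals were wild type (WT) of strain C57/BL6 and received no treatment other than the light schedule, which was a week of alternating 12 h of light and 12 h of dark followed by 1 day in complete darkness before collection. Each library was made from liver RNA of 3 animals pooled in equal amounts, each time has 1 library, and each phase was sampled on 2 internal days. Sex and age were not stated in the labels. The p-values below therefore measure the spread between pooled libraries of the same phase, in which animals, library preparation and day are joined.

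The circadian clock of liver cells is a feedback loop in which the activators BMAL1 (encoded by Arntl), CLOCK and NPAS2 bind E-box elements and switch on their own repressors, the Period, Cryptochrome and REV-ERB genes. REV-ERB proteins repress, and ROR proteins activate, genes that carry ROR elements, among them Arntl. PAR bZIP factors such as DBP and TEF pass the rhythm on through D-box elements to genes of lipid, sterol, bile acid and drug metabolism, which in liver are also set by feeding and by glucocorticoids. A contrast of dawn with dusk therefore separates genes that are high between late subjective night and midday from genes that are high between late subjective day and midnight.

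Values are RPKM (reads per kilobase of transcript, scaled to the reads of the library) of 1 transcript per gene, the one with the largest value summed over the libraries. The reads behind 1 RPKM numbered 11694200 to 13875800 in 7 libraries and 22877500 in CT35. Reads in the transcripts used numbered 6513930 to 7567430 in 7 libraries and 14377300 in CT35. Reads in introns made up 6.93% in CT35 and 11.04 to 12.57% in the other 7 libraries, and CT35 had 64.5 junction reads per 100 reads where the others had 41.4 to 49.5. None of 11 measures of library composition passed an exact 2-sided permutation test between the dawn and the dusk libraries (p from 0.286 to 0.971, where the smallest p that 4 against 4 allows is 0.0286). Summed RPKM of 12 hepatocyte markers ran from 47546 to 59483 in dawn and from 49603 to 78066 in dusk libraries, and that of 13 Kupffer cell and macrophage markers from 141 to 209 in dawn and from 131 to 198 in dusk libraries. Summed endothelial markers lay at 138 to 184 and 129 to 177 RPKM, stellate and fibroblast markers at 67.1 to 89.8 and 64.4 to 87.9 RPKM, cholangiocyte markers at 33.4 to 49.0 and 35.3 to 62.2 RPKM, and blood cell markers at 58.2 to 95.2 and 58.8 to 105 RPKM, each in dawn and then in dusk libraries. Of 12 adipocyte and pancreas markers, Plin1, Lep, Prss1, Pnlip, Cel and Amy2a5 were at 0 in all libraries. Hepatocyte markers were abundant throughout, with albumin (Alb) at 26546 to 36592 RPKM in dawn and 28593 to 53810 RPKM in dusk libraries. In whole-tissue RNA, fewer cells of a type and less RNA per cell cannot be told apart.

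Dawn was compared with dusk in limma with a mean fitted for each of the 4 phases, the difference being that of the CT23 and CT5 means from the CT11 and CT17 means. Of 10833 genes tested, 58 (0.535%) differed between dawn and dusk at an adjusted p under 0.05, and these are called. Of these, 32 were higher in dawn (0.295%) and 26 were lower in dawn (0.24%). The unadjusted p was under 0.05 in 1001 genes (9.24%). The median log2 difference, dawn minus dusk, over all genes tested was 0.03. The fold between the sides had a median of 2.03 in the genes called higher (range 1.65 to 3.54) and of 2.42 in those called lower (range 1.64 to 4.73), on the log2(RPKM + 0.5) scale, which understates changes of weak genes. All 4 dawn libraries lay above all 4 dusk libraries in 21 of the 32 genes called higher, against 273 (2.52%) of all genes tested. All 4 dawn libraries lay below all 4 dusk libraries in 14 of the 26 genes called lower, against 113 (1.04%) of all genes tested. Of the 58 calls, 5 held whichever library was left out, namely Ciart, Per2, Per3, Spon2 and Tubb2a. The number called was 6 without CT23, 6 without CT29, 11 without CT47 and 20 without CT53, and 27 without CT35, 12 without CT41, 107 without CT59 and 34 without CT65. The split between directions depended on scaling, with 21 genes called higher and 39 called lower after rescaling by the trimmed mean of M values (TMM), and with 57 higher and 71 lower in edgeR's test of the recovered reads. The gene lists and the clock genes among these calls are taken in turn below. Values per library follow the order CT23, CT29, CT47 and CT53 for dawn and CT35, CT41, CT59 and CT65 for dusk.

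Among 5 clock activators, Npas2 rose in dawn livers, and Arntl, Clock and Rora were not called (median log2 0.85 over the list, against 0.03 over all genes). Npas2, a partner of BMAL1 that can stand in for CLOCK, had 5.48, 0.895, 4.08 and 0.135 RPKM in dawn, against 0.0104, 0.123, 0.0610 and 0.362 RPKM in dusk livers. The CT23 and CT47 libraries were the highest, and CT53 lay below CT65, so the sides overlapped. The log2 difference was 1.83 (SE 0.22, limma adjusted p = 0.0103). The Npas2 call was lost without CT23 (limma adjusted p = 0.0515).

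Arntl had 11.6, 3.78, 12.8 and 1.72 RPKM in dawn, against 0.271, 6.45, 0.673 and 9.08 RPKM in dusk livers, so that it was high at phases CT23 and CT17 and the sides overlapped. Its log2 difference was 1.17 (SE 0.23, limma adjusted p = 0.0528). Clock had 7.25, 7.19, 5.73 and 5.14 RPKM in dawn, against 2.03, 4.17, 2.57 and 4.97 RPKM in dusk livers, and its sides did not overlap, with a log2 difference of 0.85 (SE 0.17, limma adjusted p = 0.0553). Both were called by edgeR (adjusted p = 0.0229 for Arntl and 0.0312 for Clock). Rora, an activator at ROR elements, averaged 7.07 ± 0.745 RPKM in dawn and 7.28 ± 1.67 RPKM in dusk livers (SD, n = 4 each; log2 -0.02, SE 0.15, limma adjusted p = 0.983).

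Of 10 clock repressors, Ciart, Per1, Per2 and Per3 fell in dawn livers and none rose (median log2 -0.61). Per2 (chromosome 1, 93312559 to 93355905 in mm9) had 4.67, 3.18, 4.31 and 5.59 RPKM in dawn, against 12.3, 24.5, 16.1 and 19.9 RPKM in dusk livers. The lowest dusk library held more than 2 times the highest dawn library. The log2 difference was -1.90 (SE 0.20, limma adjusted p = 0.00387). Per2 was also the single gene called when the 4 phases were not fitted and the 8 libraries were compared as 4 against 4 (limma adjusted p = 0.0243).

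Ciart, which encodes the repressor CHRONO (chromosome 3, 95682727 to 95686174 in mm9), had 0.757, 2.69, 0.765 and 6.45 RPKM in dawn, against 29.7, 4.82, 27.3 and 3.45 RPKM in dusk livers. It stood high at phase CT11 and low at phase CT23, while phases CT5 and CT17 overlapped. The log2 difference was -2.24 (SE 0.23, limma adjusted p = 0.00387), the largest in size among the genes called. Per3 had 0.545, 1.59, 0.466 and 2.72 RPKM in dawn, against 8.20, 4.18, 9.65 and 2.22 RPKM in dusk livers (log2 -1.84, SE 0.21, limma adjusted p = 0.00557). Like Ciart, it was highest at phase CT11 and lowest at phase CT23, and CT53 in dawn lay above CT65 in dusk. Per1 had 1.58, 9.51, 2.92 and 13.3 RPKM in dawn, against 11.4, 13.5, 24.1 and 12.1 RPKM in dusk livers, and the sides overlapped at CT53. Its log2 difference was -1.43 (SE 0.25, limma adjusted p = 0.0358). The calls of Ciart, Per2 and Per3 held whichever library was left out (limma adjusted p no higher than 0.0447), whereas Per1 was no longer called without CT23, CT29, CT47, CT53, CT41 or CT65 (up to 0.205).

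The remaining repressors passed in neither direction, and they differed in which phases were high. Nr1d1, which encodes REV-ERB alpha, had 4.94, 108, 3.75 and 154 RPKM in dawn, against 15.9, 5.501, 31.0 and 2.798 RPKM in dusk livers. Both CT5 libraries lay above all dusk libraries and both CT23 libraries within the dusk range, with a log2 difference of 1.31 (SE 0.26, limma adjusted p = 0.053). It shares 10.0% of its exon bases with Thra on the opposite strand, and edgeR called it (adjusted p = 0.0332). Cry1 had 4.05, 1.24, 4.99 and 1.04 RPKM in dawn, against 2.48, 5.30, 2.45 and 5.16 RPKM in dusk livers (log2 -0.53, SE 0.15, limma adjusted p = 0.184). Cry1 was therefore high in CT23 of one side and CT17 of the other. Cry2 averaged 5.21 ± 1.77 RPKM in dawn and 8.41 ± 1.34 RPKM in dusk livers (SD, n = 4 each; limma adjusted p = 0.163). Nr1d2, Bhlhe40 and Bhlhe41 had adjusted p of 0.542, 0.527 and 0.249 in limma.

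Of 4 D-box factors, Tef fell in dawn livers and Dbp, Hlf and Nfil3 were not called (median log2 -0.73). Tef had 4.57, 11.6, 6.41 and 21.0 RPKM in dawn, against 34.2, 17.8, 35.1 and 12.5 RPKM in dusk livers, and CT53 overlapped both CT17 libraries. Its log2 difference was -1.25 (SE 0.22, limma adjusted p = 0.0358), lost without CT23, CT29, CT47, CT35, CT41 or CT65 (up to 0.171). Dbp had 0.671, 28.6, 1.07 and 73.0 RPKM in dawn, against 103, 8.43, 91.9 and 3.51 RPKM in dusk livers. Its 2 phase pairs pointed in opposite directions, with a log2 difference of -6.18 between CT23 and CT11 and of 2.95 between CT5 and CT17, and the sides as a whole differed by -1.61 (SE 0.31, limma adjusted p = 0.0518). Dbp shares 56.2% of the exon bases of the transcript used with Sphk2. Nfil3, a repressor at D-boxes, averaged 9.40 ± 6.02 RPKM in dawn and 7.89 ± 4.54 RPKM in dusk livers, and Hlf 88.2 ± 15.9 RPKM in dawn and 103 ± 23.3 RPKM in dusk livers (SD, n = 4 each).

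Of 8 clock protein modifiers tested, Usp2 fell in dawn livers (median log2 of the list 0.03). Usp2 encodes a deubiquitinase that acts on clock proteins (chromosome 9, 43893003 to 43903710 in mm9). It had 3.36, 3.32, 4.98 and 7.28 RPKM in dawn, against 21.6, 14.2, 32.7 and 10.9 RPKM in dusk livers. All dusk libraries lay above all dawn libraries, and the log2 difference was -1.91 (SE 0.25, limma adjusted p = 0.0123), lost without CT23 or CT29 (up to 0.0694). The kinases Csnk1d, Csnk1e and Gsk3b and the ubiquitin ligase genes Fbxl21, Btrc and Fbxw11 had log2 differences between -0.21 and 0.17, with limma adjusted p of 0.771 or more.

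**Figure D1:**
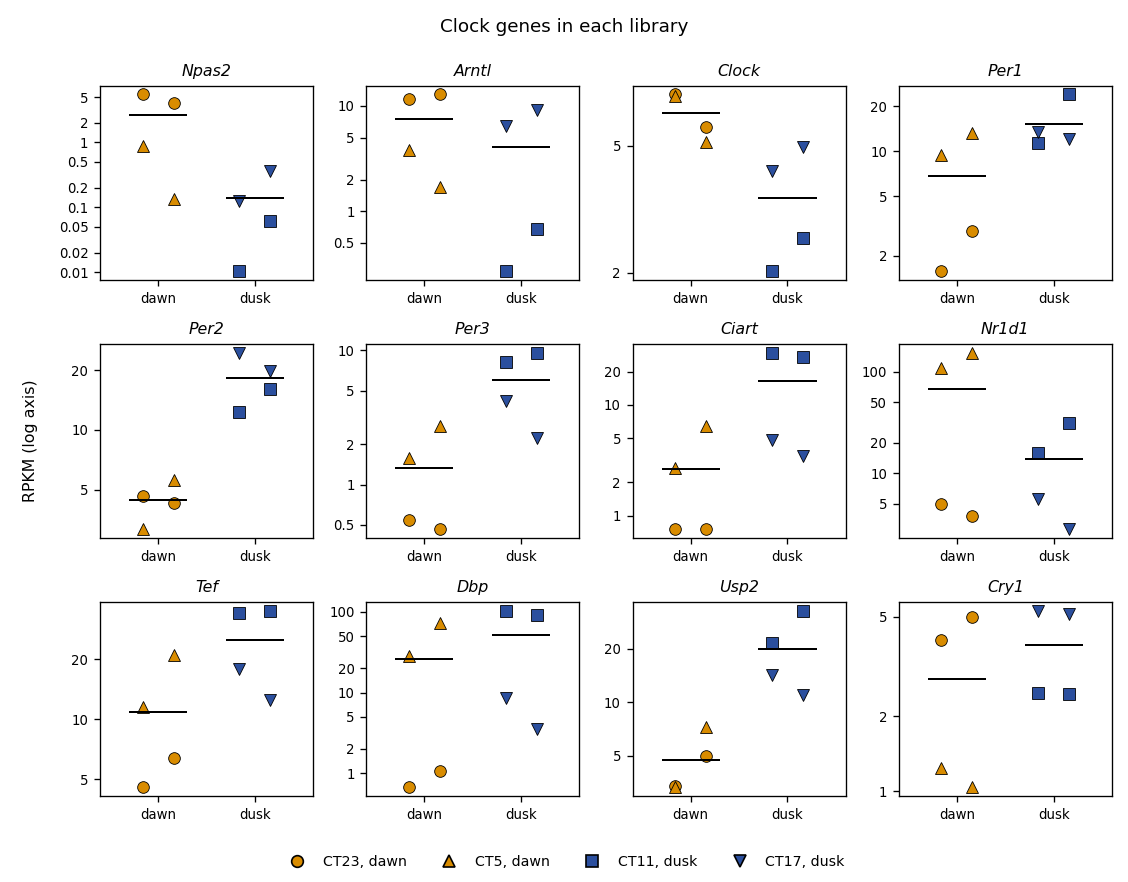
Levels of 12 clock genes in each library (RPKM, log axis), dawn on the left and dusk on the right of each panel. Symbols give the phase, the left and right point of a symbol the first and second internal day, and the bar the arithmetic mean of 4 libraries. Per2 and Usp2 are separated in all 8 libraries, whereas Dbp, Nr1d1 and Cry1 spread as widely within a side as between the sides.

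Promoter windows of the genes called were read for the elements of the clock loop, because those elements are how the loop addresses its targets. The windows reach from 250 bases before to 50 bases after an annotated start, are from RefSeq on build GRCm38.p6, and were available for 22 of the 32 genes called higher and 21 of the 26 called lower. The E-box CACGTG, which reads the same on both strands, was found in 6 of 27 windows (22.2%) of the genes called lower, in 1 of 31 windows (3.23%) of the genes called higher and in 1103 of 10907 windows (10.1%) of all genes tested. The genes called lower that had it were Ciart, Fkbp5, Per1, Rhobtb1 and Tef, the last in 2 windows, and the gene called higher was Phospho1. The D-box TTATGTAA, searched on both strands, was found in 1 of 27 windows (3.70%) of the genes called lower, that of Per3, in 0 of 31 windows of the genes called higher and in 60 of 10907 windows (0.550%) of all genes tested. The ROR element core TAGGTCA, on both strands, was in none of the windows of genes called and in 1.96% of all windows. The CCAAT box, CCAAT on either strand, was in 55.6% of windows of genes called lower, 35.5% of those called higher and 37.0% of all windows. The CRE sequence TGACG, on either strand, was in 25.9% of windows of genes called lower, 25.8% of those called higher and 31.1% of all windows. The heat shock patterns GAANNTTC and TTCNNGAA were in 0 and 1 window of the genes called lower, 1 and 0 windows of those called higher, and 5.75% and 6.81% of all windows. The glucocorticoid response pattern ACANNNTGT was in 1 window of the genes called lower, 1 window of those called higher and 4.29% of all windows. A match describes letters in these windows and is not a measured binding site. The windows of Ciart, Per1, Tef and Per3 are shown because these clock genes fell in dawn livers. Capitals mark the E-box in Ciart, Per1 and Tef and the D-box in Per3, each written 5′ to 3′ on the strand of the gene.
Ciart, chr3:95882179-95882478, minus strand: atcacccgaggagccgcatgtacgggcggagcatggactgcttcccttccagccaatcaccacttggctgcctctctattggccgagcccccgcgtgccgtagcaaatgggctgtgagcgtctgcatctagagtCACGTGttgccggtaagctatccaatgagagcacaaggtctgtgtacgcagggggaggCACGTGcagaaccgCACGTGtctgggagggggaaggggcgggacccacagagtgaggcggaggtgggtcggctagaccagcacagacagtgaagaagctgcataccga
Per1, chr11:69098699-69098998, plus strand: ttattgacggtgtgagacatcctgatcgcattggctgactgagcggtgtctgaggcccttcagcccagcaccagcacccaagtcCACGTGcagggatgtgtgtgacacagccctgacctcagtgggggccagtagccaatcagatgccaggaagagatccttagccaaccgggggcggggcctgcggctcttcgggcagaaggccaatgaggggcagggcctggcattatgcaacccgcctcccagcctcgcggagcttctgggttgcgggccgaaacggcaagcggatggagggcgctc
Tef, chr15:81802423-81802722, plus strand: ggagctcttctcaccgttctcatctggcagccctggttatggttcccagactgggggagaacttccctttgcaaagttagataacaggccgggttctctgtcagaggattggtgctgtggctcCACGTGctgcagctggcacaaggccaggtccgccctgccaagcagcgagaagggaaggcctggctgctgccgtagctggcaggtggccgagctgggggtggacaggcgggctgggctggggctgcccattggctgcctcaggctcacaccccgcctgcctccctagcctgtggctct
Per3, chr4:151044616-151044915, minus strand: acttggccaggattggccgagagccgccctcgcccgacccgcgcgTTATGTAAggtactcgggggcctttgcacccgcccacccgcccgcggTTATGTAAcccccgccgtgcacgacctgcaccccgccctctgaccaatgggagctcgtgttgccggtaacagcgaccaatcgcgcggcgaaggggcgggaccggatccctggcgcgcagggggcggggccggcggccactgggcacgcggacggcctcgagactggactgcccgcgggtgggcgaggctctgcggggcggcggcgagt
The 3 E-boxes of Ciart begin 116, 58 and 44 bases before the start, that of Per1 begins 166 bases before it and that of this Tef window 127 bases before it. Both D-boxes of Per3 begin 205 and 158 bases before the start.

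Among the gene lists outside the clock, that of lipid synthesis held the most calls. Of 26 genes of fatty acid and triglyceride synthesis, Thrsp, Lpin1 and Elovl6 fell and Elovl3 rose in dawn livers (15.4% called, against 0.535% of all genes tested). The median log2 was -0.25, and 18 of the 26 had a negative difference, against 4743 of 10833 genes in all. The list median was -0.13 without the CT35 library and -0.35 without CT59. Thrsp, which encodes the lipogenic regulator Spot 14 (chromosome 7, 104561467 to 104566020 in mm9), had 88.7, 54.3, 194 and 76.4 RPKM in dawn, against 843, 632, 221 and 299 RPKM in dusk livers. The sides did not overlap, and the first day carried the larger gap, with a log2 difference of -3.39 on the first and -1.08 on the second day. Overall it was -2.23 (SE 0.41, limma adjusted p = 0.0481), and the call was lost with the transcript of most reads (log2 -2.23, limma adjusted p = 0.0814). Lpin1, a phosphatidate phosphatase of triglyceride assembly, had 4.67, 21.0, 4.88 and 22.9 RPKM in dawn, against 90.2, 39.0, 58.99 and 12.0 RPKM in dusk livers. It was lowest at phase CT23, and CT65 in dusk lay below both CT5 libraries (log2 -1.89, SE 0.31, limma adjusted p = 0.0289). Elovl6, an elongase of long-chain fatty acids, had 8.08, 9.68, 9.43 and 11.9 RPKM in dawn, against 23.4, 25.1, 13.9 and 21.3 RPKM in dusk livers, without overlap (log2 -1.04, SE 0.20, limma adjusted p = 0.0488).

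Elovl3, an elongase of very long-chain fatty acids (chromosome 19, 46206389 to 46210184 in mm9), had the opposite course, with 120, 39.2, 156 and 38.1 RPKM in dawn, against 12.0, 39.9, 7.60 and 63.2 RPKM in dusk livers. The CT23 libraries lay above and the CT11 libraries below all others, and both CT17 libraries lay above both CT5 libraries. The log2 difference was 1.70 (SE 0.21, limma adjusted p = 0.0109). The neighbouring homeobox gene Pitx3, which shares 0.65% of its exon bases with Elovl3, had 10.9, 1.09, 14.7 and 0.934 RPKM in dawn, against 0.285, 3.79, 0.370 and 5.91 RPKM in dusk livers (log2 1.10, SE 0.18, limma adjusted p = 0.0288). Pitx3 and Elovl3 thus had the same order of phases at CT23 and CT11. No spliced reads were assigned to Pitx3, so spliced Pitx3 RNA was not shown. Introns of Pitx3 had 4.82, 0.391, 3.97 and 0.464 RPKM in dawn, against 0.0505, 1.12, 0.0981 and 3.40 RPKM in dusk livers. Stearoyl-CoA desaturase (Scd1), the most abundant member that was not called, averaged 1932 ± 183 RPKM in dawn and 1544 ± 399 RPKM in dusk livers (SD, n = 4 each; limma adjusted p = 0.556). The call of Lpin1 was lost without CT23, CT29, CT47, CT53 or CT35 (up to 0.163), that of Elovl3 without CT29 or CT47 (up to 0.081), and that of Pitx3 without CT23, CT29, CT47, CT53, CT35 or CT41 (up to 0.156). Those of Thrsp and Elovl6 were lost without any 1 library other than CT59 (up to 0.205 and 0.209).

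In sterol metabolism, Insig2 rose in dawn livers. Insig2, an endoplasmic reticulum protein that holds back SREBP, the activator of sterol synthesis genes (chromosome 1, 123202470 to 123203895 in mm9), had 41.9, 39.3, 62.9 and 44.8 RPKM in dawn, against 17.5, 26.6, 13.0 and 23.1 RPKM in dusk livers. It was higher in every dawn library than in every dusk library, with a log2 difference of 1.24 (SE 0.19, limma adjusted p = 0.0258). Over 23 genes of cholesterol synthesis and SREBP2 targets, the median log2 was -0.16, and it was -0.03 without CT35 and -0.27 without CT59. The call of Insig2 was lost without CT23, CT29, CT47, CT53, CT41 or CT65 (limma adjusted p up to 0.116).

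Nampt and Nmrk1, of the NAD salvage routes, fell in dawn livers. Nampt is the rate-limiting enzyme of NAD salvage from nicotinamide. It was the only call among 15 genes of NAD synthesis and use (6.67%, against 0.535% of all genes tested, median log2 -0.14). It had 3.77, 4.21, 4.25 and 4.78 RPKM in dawn, against 14.3, 7.58, 12.8 and 6.21 RPKM in dusk livers. The dawn libraries lay close together and below all dusk libraries, of which both CT11 libraries were the highest (log2 -1.10, SE 0.15, limma adjusted p = 0.0171). Nmrk1, which encodes nicotinamide riboside kinase and was not on that list, had 14.0, 7.66, 13.5 and 10.6 RPKM in dawn, against 20.2, 19.4, 26.5 and 27.6 RPKM in dusk livers, again without overlap (log2 -1.02, SE 0.19, limma adjusted p = 0.0481). Tdo2, which starts NAD synthesis from tryptophan, averaged 205 ± 27.2 RPKM in dawn and 263 ± 118 RPKM in dusk livers (SD, n = 4 each; limma adjusted p = 0.751). The call of Nampt was lost without CT23, CT29, CT47, CT53 or CT41 (up to 0.109) and that of Nmrk1 without any 1 of the 8 libraries (up to 0.205).

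Of 16 glucocorticoid-induced genes, Fkbp5 and Per1 fell and none rose in dawn livers (12.5% called, against 0.535% of all genes tested). Per1 is also counted among the clock repressors. The list median log2 was -0.41, and -0.28 without CT35. An unadjusted limma p under 0.05 was found in 2 members higher and 7 lower in dawn, against 9.24% of all genes tested. Fkbp5, a co-chaperone of the glucocorticoid receptor, had 1.95, 2.94, 2.99 and 5.25 RPKM in dawn, against 13.2, 7.59, 10.7 and 5.35 RPKM in dusk livers. CT53 and CT65 nearly met, but the sides did not overlap (log2 -1.35, SE 0.21, limma adjusted p = 0.0269, lost without CT23, CT29, CT47, CT35 or CT41, up to 0.133). Tat, the aminotransferase that starts tyrosine breakdown, averaged 399 ± 104 RPKM in dawn and 682 ± 104 RPKM in dusk livers (SD, n = 4 each; limma adjusted p = 0.122). Zbtb16, the zinc finger factor PLZF and not a member of the list, had 2.84, 2.49, 2.56 and 3.66 RPKM in dawn, against 9.10, 4.65, 9.08 and 3.59 RPKM in dusk livers (log2 -0.98, SE 0.17, limma adjusted p = 0.0353), lost without any 1 library other than CT59 (up to 0.168).

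Of 19 acute phase proteins, the serum amyloid genes Saa1 and Saa2 fell in dawn livers (10.5% called, against 0.535% of all genes tested, median log2 -0.07). Both are close paralogs whose reads may be shared. Saa2 had 8.19, 3.00, 6.74 and 3.82 RPKM in dawn, against 10.96, 52.3, 6.13 and 26.2 RPKM in dusk livers (log2 -1.70, SE 0.25, limma adjusted p = 0.0197). Saa1 had 9.65, 6.18, 18.5 and 6.91 RPKM in dawn, against 25.0, 52.6, 13.6 and 35.5 RPKM in dusk livers (log2 -1.54, SE 0.26, limma adjusted p = 0.0318). The CT17 libraries were the highest and the CT5 libraries the lowest for both genes, and CT59 fell within the dawn range. The fibrinogen gene Fgb averaged 2113 ± 302 RPKM in dawn and 1608 ± 414 RPKM in dusk livers (SD, n = 4 each; limma adjusted p = 0.540). The call of Saa2 was lost without CT23, CT29, CT47, CT53 or CT41 (up to 0.125), and that of Saa1 without CT23, CT29, CT53, CT35 or CT41 (up to 0.168).

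The other genes called lower were of varied function. Wee1, the kinase that restrains entry into mitosis, was the single call among 14 cell cycle genes (7.14%, against 0.535% of all genes tested, median log2 0.05). It had 0.696, 0.656, 0.635 and 1.29 RPKM in dawn, against 3.71, 1.83, 3.98 and 1.69 RPKM in dusk livers (log2 -1.27, SE 0.16, limma adjusted p = 0.0109). All dawn libraries lay below all dusk libraries. Upp2, a uridine phosphorylase, had 75.1, 102, 85.6 and 201 RPKM in dawn, against 391.5, 177, 449 and 150 RPKM in dusk livers, with overlap at CT53 (log2 -1.28, SE 0.22, limma adjusted p = 0.0358). Noct, the rhythmic protein nocturnin, had 2.31, 3.48, 3.42 and 5.62 RPKM in dawn, against 16.0, 7.99, 13.6 and 4.64 RPKM in dusk livers, with overlap at CT53 and CT65 (log2 -1.31, SE 0.22, limma adjusted p = 0.0323). The call of Wee1 was lost without CT23, CT29 or CT47 (up to 0.056), that of Upp2 without CT23, CT29, CT47, CT35, CT41 or CT65 (up to 0.136), and that of Noct without CT23, CT29, CT47, CT53, CT35 or CT41 (up to 0.168).

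Fmo2, a flavin-containing monooxygenase, had 2.87, 1.92, 2.10 and 1.76 RPKM in dawn, against 5.39, 3.81, 7.61 and 4.57 RPKM in dusk livers (log2 -1.11, SE 0.17). Marveld1, a membrane protein, had 9.09, 5.43, 9.76 and 7.47 RPKM in dawn, against 15.8, 15.1, 18.8 and 12.8 RPKM in dusk livers (log2 -0.95, SE 0.17). Rhobtb1, an atypical GTPase, had 10.7, 7.42, 9.85 and 7.01 RPKM in dawn, against 16.5, 13.3, 18.4 and 13.6 RPKM in dusk livers (log2 -0.80, SE 0.15). In all 3 genes the 4 dawn libraries lay below the 4 dusk libraries. Gm16573, a gene model that shares 21.1% of its exon bases with Parp4, had 17.3, 19.5, 11.4 and 19.5 RPKM in dawn, against 26.1, 45.3, 48.3 and 48.8 RPKM in dusk livers (log2 -1.28, SE 0.22). R3hdml had 1.19, 0.760, 0.922 and 0.808 RPKM in dawn, against 2.44, 2.50, 2.88 and 1.71 RPKM in dusk livers (log2 -1.01, SE 0.15). No spliced reads were assigned to R3hdml. Its introns had 0.773, 0.616, 0.472 and 0.724 RPKM in dawn, against 0.972, 1.83, 1.82 and 1.95 RPKM in dusk livers. Genes were tested with at least 20 reads in at least 2 libraries, which R3hdml reached only in dusk livers (at most 61 reads). Lingo4, a transmembrane protein with leucine-rich repeats, had 0.130 and 0.237 RPKM in CT23 and CT47 and 0 RPKM in CT29 and CT53, against 0.223, 0.610, 0.462 and 0.588 RPKM in dusk livers. With at most 24 reads in a library, Lingo4 reached 20 reads only in CT41 and CT65, so it was tested only through the side where it is higher. Most of its values lay below the 0.5 RPKM added before taking log2. The adjusted p of these 6 genes ran from 0.0243 for R3hdml to 0.0488 for Rhobtb1 in limma. All 6 calls were lost without CT23, CT29, CT47, CT53 or CT41, in some also without CT35, CT59 or CT65, with adjusted p up to 0.116 for Fmo2, 0.205 for Marveld1 and Rhobtb1, 0.171 for Gm16573, 0.125 for R3hdml and 0.136 for Lingo4.

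**Figure D2:**
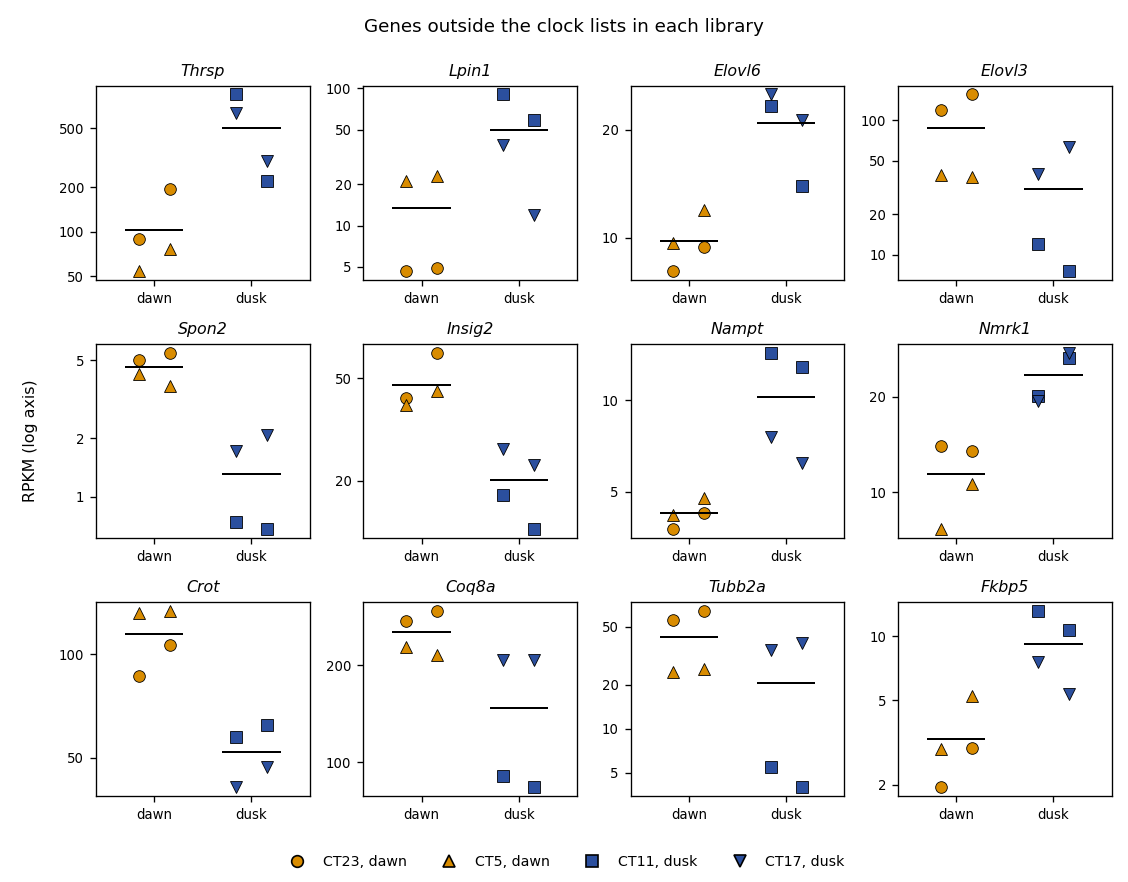
Levels of 12 genes outside the clock lists in each library (RPKM, log axis), drawn as for the clock genes, with bars for the arithmetic mean of 4 libraries. Nampt, Nmrk1, Elovl6 and Thrsp lie lower and Insig2, Spon2, Crot and Coq8a higher in all 4 dawn libraries than in any dusk library, whereas Elovl3 and Tubb2a are separated by their CT23 and CT11 libraries.

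Crot, Coq8a and Clpx rose in dawn livers, and all 4 dawn lay above all 4 dusk libraries for Crot and Coq8a. Crot, the carnitine octanoyltransferase of peroxisomes (chromosome 5, 8973603 to 8982144 in mm9), had 86.2, 132, 106 and 134 RPKM in dawn, against 57.6, 41.1, 62.1 and 47.1 RPKM in dusk livers (log2 1.13, SE 0.16, limma adjusted p = 0.0197). It was highest at phase CT5 and lowest at phase CT17. Coq8a, an atypical kinase needed for coenzyme Q synthesis, had 274, 227, 295 and 215 RPKM in dawn, against 90.8, 208, 83.8 and 208 RPKM in dusk livers (log2 0.89, SE 0.16, limma adjusted p = 0.0358). Its CT17 libraries lay just below the CT5 libraries, so the separation rested on the CT11 libraries. Clpx, the ATPase of a mitochondrial matrix protease, had 46.2, 36.4, 60.0 and 21.9 RPKM in dawn, against 9.70, 20.5, 9.13 and 29.7 RPKM in dusk livers, with overlap at CT53 and CT65 (log2 1.31, SE 0.21, limma adjusted p = 0.0288). The calls of Crot, Coq8a and Clpx were lost without CT23, CT29, CT47 or CT41, in part also without CT53, CT35 or CT65 (up to 0.109, 0.171 and 0.138). None of the 22 genes listed for fatty acid oxidation and as targets of PPAR alpha was called by limma. Of these 22, 1 had an unadjusted p under 0.05, against 9.24% of all genes tested. The fatty acid binding protein gene Fabp1 averaged 1477 ± 343 RPKM in dawn and 1760 ± 1016 RPKM in dusk livers (SD, n = 4 each).

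Tubb2a, a beta-tubulin (chromosome 13, 34166147 to 34169877 in mm9), was the single call among 18 tubulin and actin cytoskeleton genes (5.56%, against 0.535% of all genes tested, median log2 0.07). It had 55.6, 24.4, 64.2 and 25.6 RPKM in dawn, against 5.47, 34.5, 3.97 and 38.6 RPKM in dusk livers. The CT17 libraries lay above the CT5 libraries, and both CT11 libraries below all others (log2 1.505, SE 0.17, limma adjusted p = 0.00557). Spon2, which encodes the matrix protein spondin 2, had 5.01, 4.24, 5.48 and 3.70 RPKM in dawn, against 0.743, 1.72, 0.684 and 2.06 RPKM in dusk livers, without overlap (log2 1.57, SE 0.14, limma adjusted p = 0.00351). Tubb2a and Spon2 were the only genes called higher whose call held whichever library was left out (adjusted p up to 0.0447 and 0.0303). Beta-actin (Actb) averaged 237 ± 61.4 RPKM in dawn and 225 ± 43.5 RPKM in dusk livers (SD, n = 4 each; limma adjusted p = 0.957).

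Camk1d, Smagp, Rnf125, Wdr91 and Gm4952 rose in dawn livers, each with all 4 dawn above all 4 dusk libraries. Camk1d, a calmodulin-dependent kinase, had 11.4, 14.5, 10.6 and 13.8 RPKM in dawn, against 4.96, 5.27, 5.53 and 7.17 RPKM in dusk livers (log2 1.07, SE 0.16). Smagp, a small adhesion glycoprotein, had 37.2, 31.4, 36.9 and 34.1 RPKM in dawn, against 15.3, 20.6, 15.2 and 17.6 RPKM in dusk livers (log2 1.01, SE 0.16). Rnf125, a ubiquitin ligase, had 39.0, 41.6, 46.8 and 28.4 RPKM in dawn, against 15.5, 22.4, 18.1 and 22.9 RPKM in dusk livers (log2 0.96, SE 0.18). Their log2 differences on the single days lay between 0.83 and 1.25. Wdr91, a WD repeat protein of endosomes, had 32.4, 20.2, 23.7 and 26.3 RPKM in dawn, against 10.5, 13.5, 10.9 and 16.6 RPKM in dusk livers (log2 0.97, SE 0.18). Gm4952 had 28.0, 40.9, 36.5 and 50.4 RPKM in dawn, against 17.9, 13.9, 21.8 and 16.2 RPKM in dusk livers (log2 1.12, SE 0.18). With the transcript of most reads in place of the one used, a choice made after seeing the data, the log2 difference of Wdr91 was 0.58 (limma adjusted p = 0.101). Their adjusted p in limma ran from 0.0227 for Camk1d to 0.0488 for Rnf125. All 5 calls were lost without CT23, CT29, CT47, CT53 or CT41, in some also without CT35 or CT65, with adjusted p up to 0.116 for Camk1d and Smagp, 0.205 for Rnf125, 0.199 for Wdr91 and 0.114 for Gm4952.

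Of the genes called higher, 6 shared over 10% of their exon bases with another gene, so transcript reads over the shared bases cannot be assigned to a single gene. Eps8l2, an actin regulator, had 79.7, 63.6, 89.3 and 98.8 RPKM in dawn, against 23.3, 57.7, 28.6 and 63.6 RPKM in dusk livers, with CT29 and CT65 nearly equal. It shares 81.5% of its exon bases with the noncoding gene B230206H07Rik, which averaged 29.9 ± 3.75 RPKM in dawn and 14.4 ± 7.08 RPKM in dusk livers (SD, n = 4 each). Abi3 shares 80.1% of its exon bases with Phospho1 and averaged 10.5 ± 2.14 RPKM in dawn and 4.48 ± 1.84 RPKM in dusk livers (SD, n = 4 each). Both members of such a pair therefore count reads of the same exons. Mrnip shares 50.8% with Sqstm1 and averaged 8.40 ± 2.99 RPKM in dawn and 3.48 ± 1.09 RPKM in dusk livers, and Gm15998 shares 18.7% with Efna3 (SD, n = 4 each). Their log2 differences were 1.04 (SE 0.19) for Eps8l2, 1.15 (SE 0.18) for B230206H07Rik, 1.19 (SE 0.21) for Abi3, 1.43 (SE 0.25) for Phospho1, 1.14 (SE 0.15) for Mrnip and 1.002 (SE 0.18) for Gm15998. Limma's adjusted p was 0.0125 for Mrnip and between 0.0288 and 0.0433 for the others. The call of Mrnip was lost without CT23, CT29 or CT47 (up to 0.0922), and those of the other 5 without each of CT23, CT29, CT47, CT53 and CT35 and at least 1 more library (up to 0.175).

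The remaining 12 genes called higher were mostly weakly expressed. Sort1, the sorting receptor sortilin, had 4.62, 7.14, 5.40 and 7.34 RPKM in dawn, against 3.62, 2.355, 4.39 and 2.48 RPKM in dusk livers (log2 0.85, SE 0.15). Denn2b had 14.9, 10.1, 14.4 and 9.16 RPKM in dawn, against 2.33, 9.91, 3.00 and 13.4 RPKM in dusk livers (log2 1.01, SE 0.16). Denn2b was therefore separated by CT11 and not by CT17. Syne1 (nesprin 1), Gas7, Dtx4, Nufip2, Trmt9b, Rfx4, Lrfn3, Serpinb1a, Eln (elastin) and Loxl4 (a lysyl oxidase) had means of 0.909 to 5.49 RPKM in dawn and of at most 2.79 RPKM in dusk livers. Their log2 differences lay between 0.72 for Loxl4 and 1.16 for Trmt9b, with limma adjusted p from 0.0197 for Serpinb1a to 0.0488 for Loxl4. With at most 36 reads in a library, Serpinb1a reached 20 reads only in CT29 and CT53, so it was tested only through the side where it is higher. Nufip2 was not called by edgeR (adjusted p = 0.121) nor Trmt9b (0.0744), and these were the only genes of the 58 for which edgeR differed. With the transcript of most reads, the log2 difference of Nufip2 was 0.32 (limma adjusted p = 0.499). Each of these 12 calls was lost without CT23, CT29 or CT47 and without other libraries (adjusted p up to 0.205).

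The difference between the sides is the mean of 2 phase pairs, CT23 against CT11 and CT5 against CT17, and the genes called drew on them unequally. Among the genes called higher, the pair CT23 and CT11 gave the larger difference in 23 of 32 and the pair CT5 and CT17 in 9. Both pairs reached 2-fold in 3 genes, CT23 and CT11 alone in 22, CT5 and CT17 alone in 5 and neither in 2. In 6 of the 32, among them Elovl3, Tubb2a and Pitx3, the pair CT5 and CT17 pointed the other way, with log2 differences of -0.37, -0.54 and -1.80. Among the genes called lower, CT23 and CT11 gave the larger difference in 16 of 26 and CT5 and CT17 in 10. Both pairs reached 2-fold in 6 genes, CT23 and CT11 alone in 13, CT5 and CT17 alone in 6 and neither in 1. For Ciart, Lpin1 and Tef the pair CT5 and CT17 differed by 0.04, 0.02 and 0.06 in log2, and the pair CT23 and CT11 by -4.52, -3.80 and -2.57. Saa2 and Saa1 were the reverse, with -3.27 and -2.63 for CT5 and CT17 and -0.14 and -0.45 for CT23 and CT11. Per2 and Thrsp were lower in dawn by both pairs, by -1.55 and -1.71 for CT23 and CT11 and by -2.25 and -2.75 for CT5 and CT17. By their phase means, the genes called higher were highest at CT23 in 20 and at CT5 in 12 and lowest at CT11 in 26 and at CT17 in 6. The genes called lower were lowest at CT23 in 15 and at CT5 in 11 and highest at CT11 in 17 and at CT17 in 9. The larger difference within a side exceeded the difference between the sides in 13 of the genes called higher and 8 of those called lower. These pair differences come from the same contrast as the call and are given as a description.

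**Figure D3:**
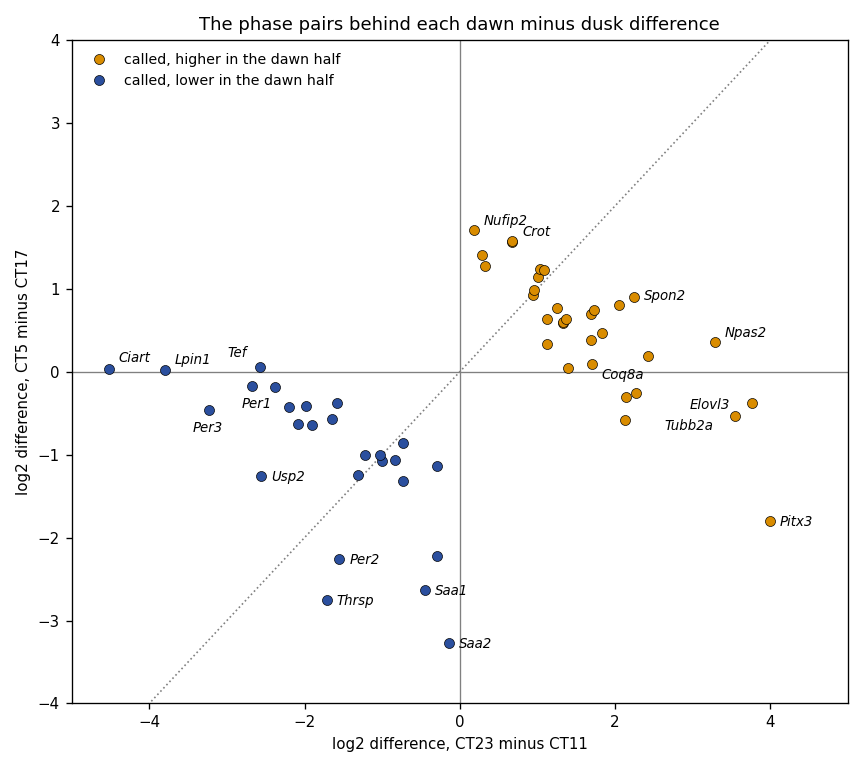
Log2 difference of CT23 minus CT11 (horizontal) and of CT5 minus CT17 (vertical) for the 58 genes called, each the difference between means of 2 libraries. The dotted line marks equal differences, Ciart and Lpin1 lie on the horizontal axis at -4.52 and -3.80, and Saa2 lies near the vertical axis at -3.27.

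On the 2 internal days separately, every gene called had the sign of the call, which the call itself favours because it uses both days. The median log2 difference of the genes called higher was 1.09 on the first and 0.97 on the second day, and that of the genes called lower -1.54 on the first and -1.02 on the second day. The difference was larger on the first day in 21 of 32 and 21 of 26 genes. The first day holds the CT35 library, whose values set it apart as given above, and its part in these medians was not tested. In the test of whether the sides differed unequally on both days, limma called 0 of 10833 genes, with an unadjusted p under 0.05 in 2031 genes and a smallest adjusted p of 0.139, on 2 residual degrees of freedom. The test of the sides themselves had an unadjusted p under 0.05 in fewer genes, 1001 of 10833. The absence of calls therefore does not show that the difference was equal on both days.

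Introns and spliced reads were examined as other readouts of the same libraries, the introns reporting mostly on unspliced RNA. In introns, limma called 35 of 5795 genes (0.604%), 8 higher and 27 lower in dawn, of which 16 were also called in transcripts. The number was 21 without CT23, 21 without CT35, 12 without CT41 and 19 without CT59. Of the genes called higher in transcripts, 20 had introns that could be tested, all with the same sign, and 2 were called (Npas2 and Pitx3), with a median log2 difference of 0.44 in introns against 1.01 in their transcripts. Of the genes called lower, 24 could be tested, all with the same sign, and 14 were called, with a median of -1.07 in introns against -1.27 in their transcripts. These genes were picked by their transcript call in the same pooled libraries, so the matching intron signs are no separate support. The median over genes of the mean intron level was 0.501 RPKM for the genes called higher and 1.03 RPKM for those called lower, so the introns of the genes called higher were also the more weakly covered. Introns of Thrsp had 3.19, 13.9, 3.35 and 6.33 RPKM in dawn, against 37.6, 19.97, 16.5 and 10.4 RPKM in dusk livers, and they overlapped only at CT29 (log2 -1.75, SE 0.34, limma adjusted p = 0.00268). Introns of Nr1d1, whose transcript was not called, had 0.447, 8.22, 0.344 and 15.1 RPKM in dawn, against 0.848, 0.379, 2.03 and 0.1598 RPKM in dusk livers (log2 1.70, SE 0.29, limma adjusted p = 0.000263). Introns of Elovl6 had 0.145 to 0.258 RPKM in dawn and 0.188 to 0.325 RPKM in dusk livers (log2 -0.26, SE 0.19, limma adjusted p = 0.9998), while its transcript fell.

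In spliced reads, edgeR called 100 of 8602 genes (1.16%), 44 higher and 56 lower in dawn, of which 35 were also called in transcripts. The number was 47 without CT23, 38 without CT29, 49 without CT47, 36 without CT41, 243 without CT59 and 55 without CT65. Of the genes called higher in transcripts, 24 could be tested, all with the same sign, and 15 were called (median log2 1.202). Of those called lower, 22 could be tested, all with the same sign, and 20 were called (median log2 -1.65). Spliced reads and transcript values count many of the same reads, so these signs are no separate support. Ciart had 2, 6, 2 and 27 spliced reads in dawn, against 301, 15, 92 and 18 in dusk livers, where CT35 is the deeper library (log2 -2.90, edgeR adjusted p = 0.00247). Npas2 had 202, 27, 155 and 4 spliced reads in dawn, against 2, 7, 4 and 12 in dusk livers (log2 3.59, edgeR adjusted p = 0.00674). Npas2 reached 20 spliced reads only in CT23, CT29 and CT47, so it was tested there only through the side where it is higher. Per2 had 70, 51, 93 and 87 spliced reads in dawn, against 834, 426, 320 and 348 in dusk livers (log2 -2.31, edgeR adjusted p = 1.9e-05). Arntl, Clock and Dbp, which limma did not call in transcripts, were called in spliced reads, with log2 differences of 1.48, 1.09 and -3.07 (edgeR adjusted p = 0.00995, 0.0408 and 0.0126). Abi3 and Wdr91 had log2 differences of 0.38 and 0.36 there (edgeR adjusted p = 0.697 and 0.573), against 1.19 and 0.97 in transcripts, and Abi3 is the gene that shares most of its exon bases with Phospho1. Smagp, whose sides did not overlap in transcripts, had 0.56 in spliced reads (edgeR adjusted p = 0.444), against 1.01 in transcripts. Of the 37 genes called in transcripts that could be tested in both other readouts, 13 were called in all 3.

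**Figure D4:**
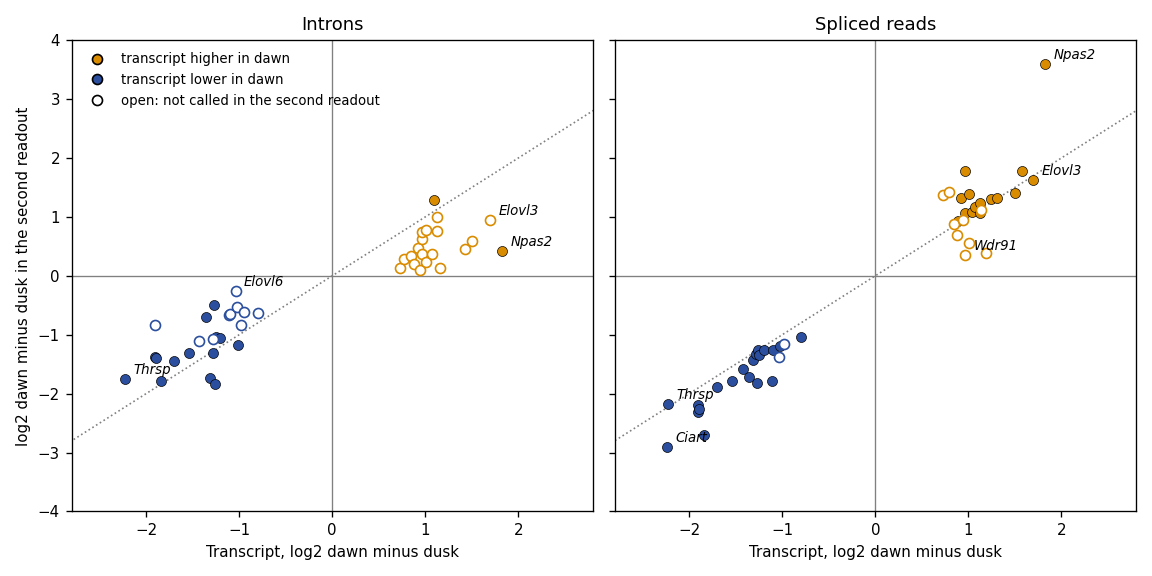
Log2 difference, dawn minus dusk, in introns (left) and in spliced reads (right) against that of the transcript for the genes called in transcripts. Filled points were called in the second readout, open points were not, and the dotted line marks equal differences. Introns of genes higher in dawn lie mostly below the line, with a median of 0.44 against 1.01.

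The other lists held no call by limma, and several leaned to one side without any member that passed. Of all 10833 genes tested, 6090 had a positive and 4743 a negative difference. Of 22 cytosolic chaperones and HSF1 targets, 17 had a negative and 5 a positive difference, with a median log2 of -0.20, which was -0.07 without CT35 and -0.31 without CT59. Hspa8, the constitutive HSP70 chaperone, averaged 277 ± 78.8 RPKM in dawn and 488 ± 143 RPKM in dusk livers (SD, n = 4 each; limma adjusted p = 0.158). Of 24 genes of folding in the endoplasmic reticulum, 19 had a negative difference, with a median of -0.18 (-0.09 without CT35 and -0.29 without CT59), and Calr averaged 897 ± 136 RPKM in dawn and 818 ± 386 RPKM in dusk livers (SD, n = 4 each). Of 17 genes of glucose uptake and glycolysis, 12 had a negative difference, with a median of -0.27 (-0.09 without CT35 and -0.38 without CT59). An unadjusted p under 0.05 was found in 4 chaperone, 2 endoplasmic reticulum and 3 glycolysis genes, all lower in dawn. Among all 10833 genes tested it was found in 587 higher and 414 lower in dawn (9.24% together). The medians of these 3 lists moved with the CT35 and CT59 libraries, and the part of those libraries in them was not tested.

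Of 14 gluconeogenesis and glycogen genes, 11 had a negative difference (median log2 -0.17), and Pck1, the rate-limiting enzyme of gluconeogenesis, averaged 274 ± 182 RPKM in dawn and 451 ± 327 RPKM in dusk livers (SD, n = 4 each; limma adjusted p = 0.531). Of 22 genes of the urea cycle and amino acid breakdown, 16 had a negative difference (median -0.14), and Hpd, of tyrosine breakdown, averaged 2969 ± 616 RPKM in dawn and 3730 ± 595 RPKM in dusk livers (SD, n = 4 each). Of 22 cytochrome P450 genes, 15 had a negative difference (median -0.10), and Cyp2e1 averaged 2759 ± 528 RPKM in dawn and 3379 ± 790 RPKM in dusk livers (SD, n = 4 each). Por, the reductase that supplies P450 enzymes with electrons, had 228, 220, 236 and 458 RPKM in dawn, against 473, 587, 879 and 407 RPKM in dusk livers. CT53 and CT65 overlapped, and the log2 difference was -1.05 (SE 0.27, limma adjusted p = 0.146). Bile acid genes were split 8 to 9 (median -0.02) and heme genes 4 to 6 (median -0.04) between positive and negative. An unadjusted p under 0.05 was found in 1 gluconeogenesis gene higher and 4 lower in dawn, in 1 higher and 4 lower of the urea cycle list, in 2 P450 genes lower, in 2 bile acid genes higher and 1 lower, and in 1 heme gene higher and 2 lower. The share over all genes tested was 9.24%.

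Immediate early genes leaned the other way, with 11 of 13 tested positive (median log2 0.24), and the 13 include no Fos, Fosb or Egr2, which had too few reads. Jund averaged 17.9 ± 5.33 RPKM in dawn and 21.2 ± 7.90 RPKM in dusk livers (SD, n = 4 each). Of 19 nuclear receptors outside the clock, 12 were positive (median 0.08), and Nr1h3, which encodes the oxysterol receptor LXR alpha, had a log2 difference of 0.02 (SE 0.20, limma adjusted p = 0.989). Medians of the lists of insulin and IGF signalling (-0.07), ribosome biogenesis (-0.15), RNA-binding and cold-inducible proteins (-0.00), autophagy (0.06) and NRF2 targets (0.02) lay within 0.2 of the median of all genes. Markers of nonparenchymal cells were mostly positive, in 11 of 13 Kupffer cell, 11 of 11 endothelial and 10 of 12 stellate markers tested (medians 0.15, 0.10 and 0.13), and hepatocyte markers mostly negative, in 9 of 12 (median -0.12). Without CT35 the medians were 0.07 for Kupffer cell, 0.14 for endothelial, 0.18 for stellate and -0.02 for hepatocyte markers. Without CT59 they were 0.14, 0.09, 0.09 and -0.23 in the same order. All these sign counts stand against 6090 positive and 4743 negative among the 10833 genes tested. No marker was called by limma, with an unadjusted p under 0.05 in 1 hepatocyte, 1 Kupffer cell and 1 cholangiocyte marker lower and in 1 stellate and 1 blood cell marker higher in dawn, against 9.24% of all genes tested. The part of cell composition in the other differences was not tested.

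**Figure D5:**
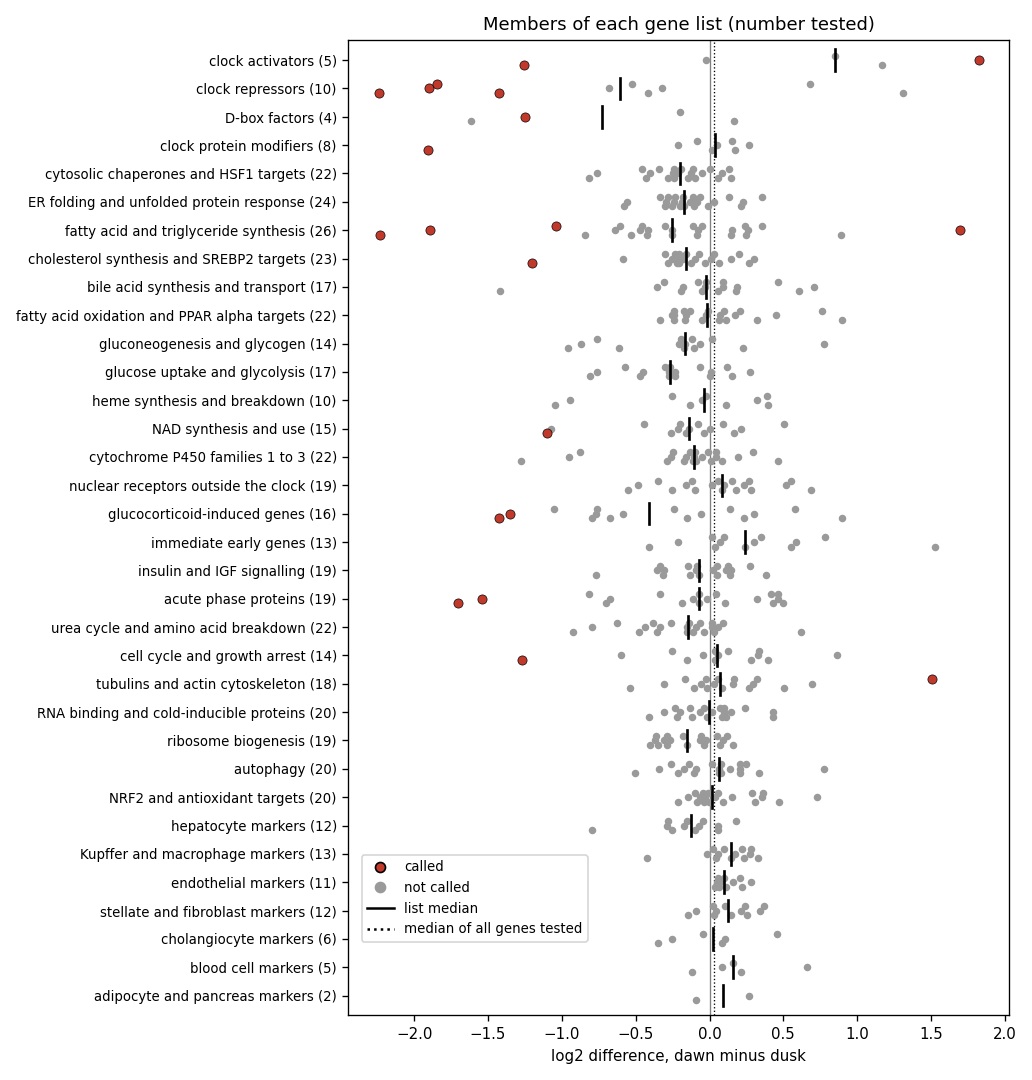
Log2 difference, dawn minus dusk, of every tested member of each gene list, with the number tested in brackets. Red points were called, black bars are list medians and the dotted line is the median of all genes tested (0.03). Of the lists drawn, the clock repressors and fatty acid and triglyceride synthesis hold the most calls, with 4 each, and many called genes are on no list.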

How the data were processed

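Polyadenylated RNA of 8 pooled liver samples was sequenced as paired-end Illumina libraries, per the labels' protocols. The deposited feature files give a lower value (used here) and an upper value per transcript, exon and intron, whose difference is not explained in the sources used here. Their unit is not stated either and was read as RPKM from the values, which are whole multiples of a step set by feature length and library. The deposited junction files give counts of reads across splice junctions, of which the high-quality class was used, per the track lines of the file headers. Coordinates are on mm9, per the submitters' processing notes, and junctions are named as from RUM, per the file headers. The aligner's settings were not given in the sources used here. Of 115699 transcripts, 79653 (68.85%) could be named from RefSeq or Vega identifiers, giving 24092 genes. Multiplying RPKM by length gave whole reads, within 0.1 read, for 99.978 to 99.997% of values per library, and these recovered reads served the read filter and the count tests.

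Genes with at least 20 reads in at least 2 libraries were tested on log2(RPKM + 0.5) with limma 3.58.1 in R 4.3.3, with 4 phase means and 4 residual degrees of freedom. Introns free of exons were tested likewise with a pseudocount of 0.128, which is 0.5 of the median intron level. Spliced reads were tested with edgeR 4.0.16's quasi-likelihood test, and DESeq2 1.42.0 served as an alternative. P-values were adjusted by Benjamini-Hochberg over all genes tested. The code was tested on simulated data. Named were all clock genes measured, the 12 called genes of largest difference in each direction with a mean of at least 5 RPKM, sides that do not overlap and the same sign on both days, and of each other list up to 3 called members and the most abundant member not called; the remaining called genes are given except that some are not reported here. The sides and lists were chosen with earlier results of these data known. The labels give no replicate numbers that pair the libraries, and the deviations of same-day libraries correlated between -0.396 and 0.315.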

Additional observations from a re-analysis of the deposited data

Results flagged for a closer look

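In 3 of 120 groups of 4 libraries examined, a single library lay far from the other 3, as chance does in about 1 in 20 groups. Per1 had 24.0839 RPKM in CT59, above the other dusk libraries. Bhlhe40, a clock repressor that was not called, had 50.1642 RPKM in CT59, again above the other dusk libraries. Gm16573 had 26.0732 RPKM in CT35, below the other dusk libraries, and it shares exon bases with Parp4. No cause was tested.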

How the results depend on the processing

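The number of genes called in transcripts, 58, was 29 with a 24-h cosine and sine in place of phase means, 1 without phase terms, 115 with at least 100 reads in at least 4 libraries, 128 with edgeR, 209 with DESeq2, and 0 of 18827 genes in limma without the read filter, where 1349 had an unadjusted p under 0.05. It was also 128 when the transcript with the most reads was taken for each gene, a choice made after seeing the data, and 55 of the 58 were called then, without Thrsp, Nufip2 and Wdr91. The number stayed within 1.5 times under TMM rescaling (60), equal medians (70), a pseudocount of 0.1 (58) or 1 (63), the upper value (62), array weights (60) and internal day as a block (52), and no called gene changed sign under the alternatives listed. Of calls, 55.2% were higher in dawn as reported, 35% under TMM rescaling, 40% with equal medians, 44.5% in edgeR and 45.0% in DESeq2. In introns the number called, 35, was 15 under TMM rescaling, 60 with internal day as a block and 1 without phase terms. In spliced reads it was 158 with DESeq2, 250 without the read filter and 7 without phase terms, against 100. Leaving out 1 library, which leaves 3 residual degrees of freedom, gave 6 to 107 calls in transcripts, 12 to 34 in introns and 36 to 243 in spliced reads. The cause of these shifts was not tested.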

Other observations

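Single members of the lists had large differences without being called, and both named here were chosen after their values were seen. Cyp7a1, the rate-limiting enzyme of bile acid synthesis, had a log2 difference of -1.42 between dawn and dusk livers (SE 0.28, limma adjusted p = 0.0518). Egr1, an immediate early transcription factor, had one of 1.52 (SE 0.39, limma adjusted p = 0.14), with 0.94 between CT23 and CT11 and 2.11 between CT5 and CT17.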
